A study of Homo sapiens with 49 samples.

Results

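The regions described here are the places in the Ishikawa genome where peaks of 4 or more chromatin targets appeared together after estradiol. They were selected on the peak lists of 9 targets: for each target, peaks of the list made after 17β-estradiol (E2) that did not touch any peak of the vehicle (DMSO) list by 1 bp were called gained, the gained peaks of all targets were merged where they overlapped on chromosomes 1 to 22 and X, and merged regions with at least 4 targets were kept. This gave 418 members of 31375 merged gained regions, which is 1.33%. Gain and number of targets are therefore what chose the members, and they are given as description without a test.

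The study mapped chromatin by ChIP-seq in 2 established human cell lines, Ishikawa (endometrial adenocarcinoma) and T-47D (breast carcinoma), to relate regulatory regions to the response to estrogen. Cells had been kept for 5 days in hormone-depleted media and then received 10 nM E2 or DMSO, for 1 h before ChIP of the proteins JUN, LSD1, MAX, MYC, RARA, TAF1 and, in T-47D, RNA polymerase II (RNAPII), and for 8 h before ChIP of the histone marks H3K27me3, H3K4me1 and H3K4me3. SIN3A was mapped in hormone-stripped and in full media, and H3K36me3 in Ishikawa alone. Of 49 samples, 45 had a peak list, and with the exception of T-47D RNAPII (2 replicates per treatment) each group was 1 library, so that a difference between E2 and DMSO lists has no replicate check and cannot be told apart from a difference between 2 libraries. The targets of the rule also joined marks taken at 8 h with proteins taken at 1 h.

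Estradiol binds the estrogen receptor, a nuclear receptor that sits on palindromic DNA elements called estrogen response elements (EREs), many of them in enhancers far from genes, and recruits coactivators there. H3K4me1 is the mark typical of enhancers, H3K4me3 that of promoters, and H3K27me3 that of Polycomb-silenced chromatin. JUN is a subunit of the AP-1 transcription factor, LSD1 is a demethylase that removes methyl groups from H3K4, RARA is the retinoic acid receptor alpha, MAX is the E-box binding partner of MYC, TAF1 is the largest subunit of TFIID, which sits at promoters, and SIN3A is the scaffold of a histone deacetylase corepressor complex.

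The sequences under 5 members are shown because the ERE is the sequence feature in which members without H3K4me3 under DMSO stood apart from other gained regions, as described further on. Each is 200 bases of the forward strand of GRCh37 centred on the summit of the gained peak with the highest −log10 q-value. Capitals mark a match to the ERE, GGTCANNNTGACC, with at most 1 mismatch, or to the AP-1 motif, TGANTCA. All 5 members had no H3K4me3 under DMSO. All 5 held an ERE match, whereas 40 of the 150 members without H3K4me3 under DMSO did within 300 bp about the summit. Of the members with 7 targets, those at SWINGN, GSE1 and MLPH held no such match and that at MIR5093 did.

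CARS1, chr11:3032138-3032337: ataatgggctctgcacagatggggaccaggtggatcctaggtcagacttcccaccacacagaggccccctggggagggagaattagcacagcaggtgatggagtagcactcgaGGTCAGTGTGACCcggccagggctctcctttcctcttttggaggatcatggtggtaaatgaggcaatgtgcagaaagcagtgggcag

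DHRS3, chr1:12660420-12660619: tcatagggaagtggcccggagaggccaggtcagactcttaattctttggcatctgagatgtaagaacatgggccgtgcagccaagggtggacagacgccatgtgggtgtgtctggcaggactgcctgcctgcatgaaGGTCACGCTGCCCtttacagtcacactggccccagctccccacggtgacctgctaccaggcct

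GREB1, chr2:11638772-11638971: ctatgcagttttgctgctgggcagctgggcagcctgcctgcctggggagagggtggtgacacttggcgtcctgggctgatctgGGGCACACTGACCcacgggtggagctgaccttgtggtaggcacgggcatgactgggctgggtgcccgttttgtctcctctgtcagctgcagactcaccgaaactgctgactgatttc

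TMEM120B, chr12:122186860-122187059: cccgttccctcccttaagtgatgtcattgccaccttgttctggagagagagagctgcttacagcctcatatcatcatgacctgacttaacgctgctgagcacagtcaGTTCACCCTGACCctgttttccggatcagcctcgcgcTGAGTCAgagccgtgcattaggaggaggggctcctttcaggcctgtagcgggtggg

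NRIP1, chr21:16375889-16376088: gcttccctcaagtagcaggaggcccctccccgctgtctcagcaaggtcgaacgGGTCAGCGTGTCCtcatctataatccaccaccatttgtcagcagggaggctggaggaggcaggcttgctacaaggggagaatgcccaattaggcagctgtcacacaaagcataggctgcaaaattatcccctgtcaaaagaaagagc

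The CARS1 member held the ERE without a mismatch, with its centre 19 bp from the JUN summit. Counted from 1 at the 5′ end of the motif, the DHRS3 match carried A11C, the GREB1 match T3G, the TMEM120B match G2T and the NRIP1 match A11T. In TMEM120B an AP-1 motif lay 47 bp from the summit beside the ERE.

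Regions that gained several targets were frequent in Ishikawa after E2 and less frequent in the other directions. In Ishikawa, 21735 merged regions gained 1 target, 6848 gained 2 and 2374 gained 3, and of the members 361 gained 4, 41 gained 5, 11 gained 6, 4 gained 7 and 1 gained 8. By the mirror rule, DMSO peaks without overlap in the E2 list, 12 Ishikawa regions lost 4 targets. In T-47D, the same rule found 0 regions that gained 4 targets and 63 that gained 3, whereas 9 regions lost 4. The lists behind these numbers were unequal in length: JUN went from 3763 peaks under DMSO to 18310 under E2, LSD1 from 8613 to 18382, H3K27me3 from 2193 to 6989 and RARA from 136 to 2881, while in T-47D the H3K27me3 list fell from 6301 to 99 peaks with E2. The background pileup recovered from the JUN lists, which rises with sequencing depth, was 0.537 tags under DMSO and 1.09 tags under E2. For LSD1 it was 0.769 and 0.767 tags, for H3K4me3 0.945 and 0.981, and for RARA 2.04 under DMSO and 1.01 under E2. For H3K27me3 it was 0.801 tags under DMSO and was not recovered under E2. The part of depth in the number of members was not tested. When the 5 E2 lists that were longer than their DMSO lists (H3K27me3, H3K4me3, JUN, LSD1 and RARA) were shortened to the DMSO length by p-value, 64 regions gained 4 or more targets. Of these 64, 46 had no H3K4me3 under DMSO and 14 (21.9%) lay at an annotated transcription start site. Among the 418 members the counts were 150 and 228. By the mirror rule, with longer DMSO lists shortened in the same way, 4 regions lost 4 or more targets.

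**Figure D1:**
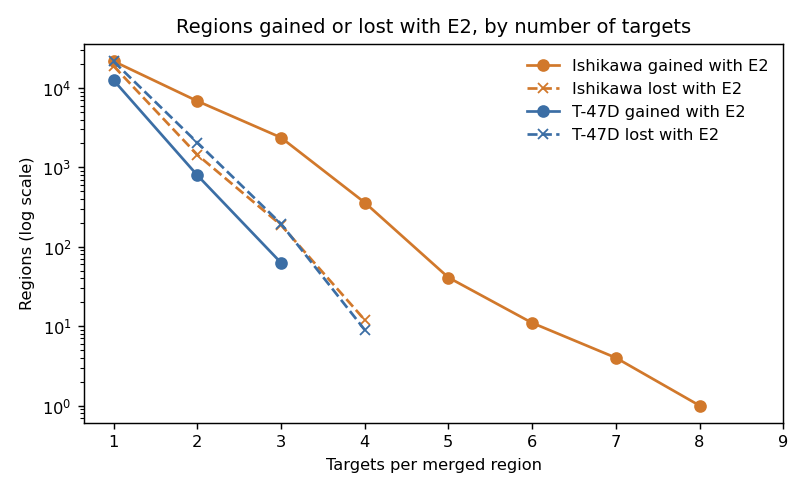
Number of merged regions (log scale) against the number of targets each gained or lost with E2, for Ishikawa (orange) and T-47D (blue). Points are counts of regions from 1 library per list, and numbers without a region are not drawn. The Ishikawa gained line reaches 8 targets, and the T-47D gained line ends at 3 targets with 63 regions.

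At the threshold itself, the regions just inside and just outside were alike in the strength of their single peaks. Regions with exactly 4 targets had a median peak fold enrichment of 9.25, a median width of 676 bp and H3K4me3 under DMSO in 69.0% of cases. Regions with 3 targets had a median peak fold enrichment of 8.91, a width of 564 bp and H3K4me3 under DMSO in 83.7%. With more targets the marked share was lower, at 39.0% of the 41 regions with 5 targets, 3 of the 11 with 6, and 0 of the 5 with 7 or 8.

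JUN and LSD1 were the common core of the members. JUN was gained in 403 of 418 members (96.4%) and LSD1 in 387 (92.6%), and 373 members (89.2%) gained both. Of all E2 peaks of these targets, 81.6% of JUN and 64.6% of LSD1 peaks were gained. These are shares of the peaks of each target, not of merged regions. JUN and LSD1 also had the most gained peaks, 14948 and 11872, beside 0 (MYC) to 6054 (H3K27me3) for the others. The share of all merged gained regions that held each target is not given here. H3K27me3 was gained in 293 members, against 86.6% of all its E2 peaks, and RARA in 240, against 95.6%. H3K4me3 entered 162 members (11.4% of its E2 peaks gained), H3K4me1 98 (19.9%), TAF1 96 (2.82%) and MAX 72 (32.3%). The number of members thus did not follow the gained share from target to target. MYC entered no member, since its E2 list held 2 peaks. Because these shares come from the contrast that chose the members, they describe the make-up of the set.

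The members fell into 60 combinations of targets, of which 24 occurred once. The commonest, H3K27me3 with JUN, LSD1 and RARA, made up 154 members (36.8%), and 146 of them lay at an annotated start site. The next, H3K4me1 with H3K4me3, JUN and LSD1, made up 41 members, of which 10 lay at a start site. H3K27me3 with H3K4me3, JUN and LSD1 followed with 23 members, and 21 members each gained JUN and LSD1 with H3K27me3 and MAX or with H3K4me3 and TAF1. The first combination joins H3K27me3, whose list went from 2193 to 6989 peaks with E2, to 3 proteins. All 154 of its members overlapped H3K4me3 under DMSO, and whether their H3K27me3 peaks stand for silencing was not tested. The second joins both H3K4 marks to the same JUN and LSD1.

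These combinations separated by the state of the region before E2. Members were split, after their values had been seen, by whether they overlapped an H3K4me3 region of DMSO-treated Ishikawa cells: 268 did (marked members) and 150 did not (unmarked members). The split is in part fixed by the rule, since a gained H3K4me3 peak cannot itself overlap a DMSO peak of that mark. All 154 members of the commonest combination were marked and all 41 of the second were unmarked. H3K27me3 was gained in 247 marked and 46 unmarked members, RARA in 195 and 45, H3K4me3 in 26 and 136, H3K4me1 in 25 and 73, and TAF1 in 34 and 62. JUN was gained in 259 marked and 144 unmarked members, and LSD1 in 254 and 133, so that both kinds shared the JUN and LSD1 core. Leaving out the lists of H3K27me3, RARA, JUN or LSD1 lowered the number of both kinds, and the marked members fell by the larger share each time. Leaving out the H3K4me1 lists went the other way. It left 345 regions, of which 96 were unmarked, so that the unmarked members fell by the larger share. Without the H3K27me3 lists, 161 regions gained 4 or more targets, of which 126 were unmarked, and without the RARA lists 213, of which again 126 were unmarked. Without the JUN lists 66 regions were left, 41 of them unmarked, and without the LSD1 lists 80, of which 51 were unmarked.

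**Figure D2:**
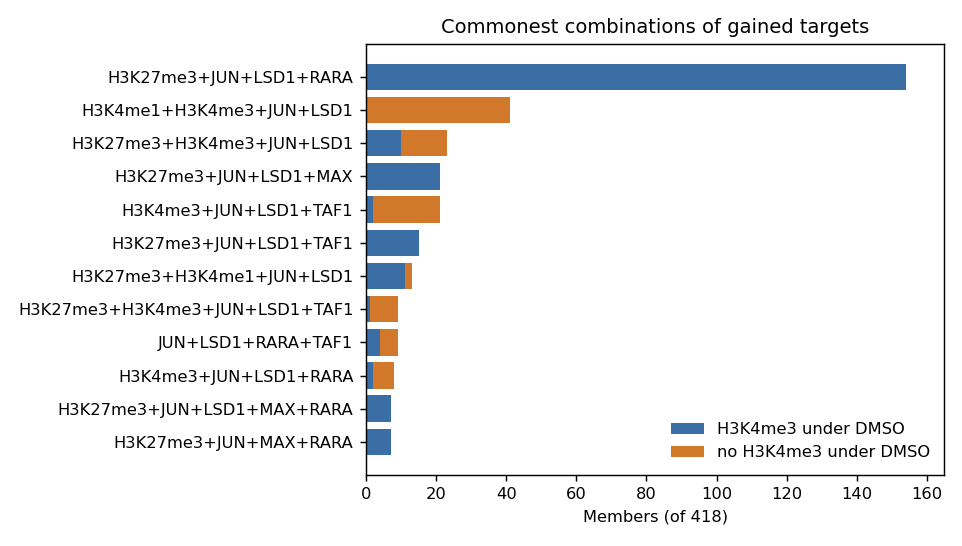
Number of members in each of the 12 commonest combinations of gained targets, stacked by H3K4me3 under DMSO (blue, present; orange, absent). The first bar, 154 members, is blue throughout and the second, 41 members, is orange throughout.

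The marked members were promoters by position. Of 268, 201 (75%, exact 95% interval 69.4 to 80.1) lay within 250 bp of an annotated transcription start site, and the median distance from summit to the nearest protein-coding start was 97 bp. Their windows were GC-rich, with a median of 66.7% GC and a median observed-to-expected CpG ratio of 0.817. Under DMSO, TAF1 already occupied 235 of them (87.7%). JUN was listed at 3 and RARA at 0, which the rule largely fixed. A gained peak cannot overlap a DMSO peak of its target, and 259 marked members gained JUN and 195 gained RARA. The RARA list under DMSO also held only 136 peaks. After E2, TAF1 overlapped 254 marked members, and 34 marked members gained a TAF1 peak by the rule. Of marked regions that gained 3 targets, 82.6% lay at a start site and 94.5% overlapped TAF1 under DMSO.

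The unmarked members lay mostly away from promoters. Of 150, 27 (18.0%, interval 12.2 to 25.1) lay at a start site, 61 were intronic, 44 intergenic and 14 in coding exons, and 71 had their summit more than 10000 bp from a protein-coding start. The median distance was 8886.5 bp, the median GC 58.8% and the median CpG ratio 0.275. H3K4me1 was present under DMSO at 88 (58.7%) and under E2 at 134 (89.3%), so the majority carried the enhancer mark before estradiol. TAF1 overlapped 22 unmarked members under DMSO and 75 under E2. These rises follow in part from the rule, which counted a gained H3K4me1 peak in 73 unmarked members and a gained TAF1 peak in 62. Unmarked regions that gained 3 targets had 15.2% at a start site and H3K4me1 at 65.6% under DMSO and 80.1% under E2. The intervals here and below cover counting error over regions of single libraries, and regions are not replicates of a treatment.

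The JUN and LSD1 peaks of unmarked members had the higher fold enrichment. The median fold enrichment of the strongest gained JUN peak was 17.7 (range 4.99 to 83.2) in unmarked and 8.08 (3.47 to 114) in marked members, and for LSD1 it was 15.7 (6.54 to 69.2) and 8.22 (3.85 to 49.5). The tags piled up at the summit were nearly equal, with a median of 49.0 tags in unmarked and 48.0 in marked members for JUN, and 33.0 and 35.0 for LSD1. Fold enrichment divides the pileup by the local background, whose median was 1.71 tags under the JUN peaks of unmarked members and 4.71 tags under those of marked members, and 1.13 and 3.15 tags for LSD1. H3K27me3 had median folds of 12 and 11.2, TAF1 9.50 and 9.25, and H3K4me3 9.78 and 10.2, for unmarked and marked members in that order.

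**Figure D3:**
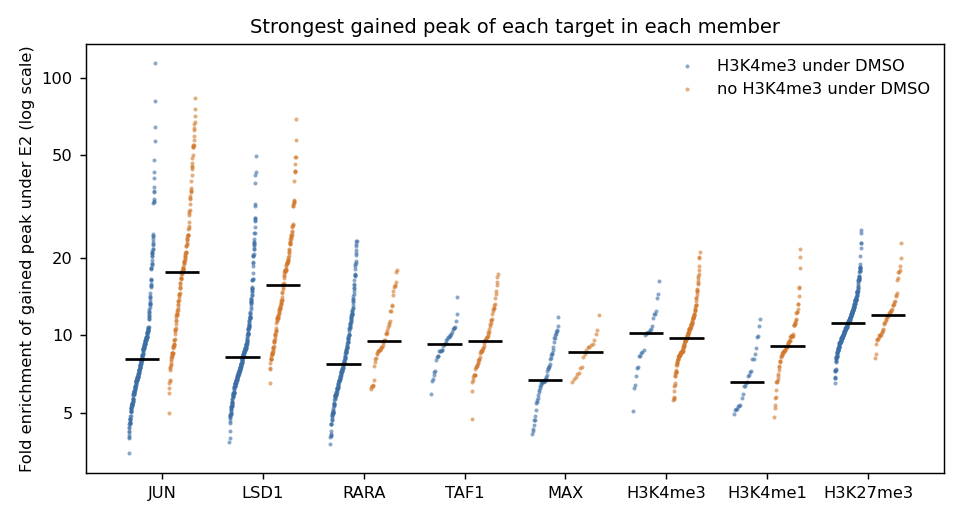
Fold enrichment (log scale) of the strongest gained E2 peak of each target in each member, as points in rising order, with the median as a black line (blue, H3K4me3 under DMSO; orange, none). Medians for JUN are 8.08 and 17.7 and for LSD1 8.22 and 15.7, whereas H3K4me3, TAF1 and H3K27me3 medians lie close together.

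The member with the most targets lay at CARS1, which encodes the cytosolic cysteinyl-tRNA synthetase. It spanned chr11:3030938-3032578, reached a start site annotated for CARS1 and had its summit 1475 bp from the nearest protein-coding start. Under DMSO, it overlapped no region of any of the 9 targets. Under E2, fold enrichment was 50.3 for JUN, 43.1 for LSD1, 18.3 for H3K4me1, 15.8 for H3K4me3, 15.6 for TAF1, 11.2 for RARA, 10.5 for H3K27me3 and 9.17 for MAX. The JUN summit held 107 tags and the LSD1 summit 77. Folds of different antibodies are not on a common scale, so each peak was also ranked by p-value within the E2 list of its target. JUN, LSD1 and H3K4me1 ranked at the percentiles 97.4, 97.6 and 97.1, and the other 5 targets between 23.6 and 39.7. In T-47D, it overlapped none of the 9 lists under either treatment and no RNAPII region.

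Members with 7 targets numbered 4, and all were unmarked. At the long non-coding RNA gene SWINGN (chr13:114630209-114633065), JUN reached 59.5, LSD1 57.3 and H3K4me1 21.6-fold enrichment. A member in an intron of GSE1 (chr16:85499395-85500233), which encodes a subunit of an LSD1-containing corepressor complex, had JUN at 39.6 and LSD1 at 43.3. A second one at the microRNA gene MIR5093 (chr16:85339686-85340753), for which GSE1 was the nearest protein-coding gene, had JUN at 19.0 and LSD1 at 15.8. The fourth lay 3309 bp from MLPH (chr2:238467274-238468842), which encodes the melanosome transport protein melanophilin, with LSD1 at 24.4 and JUN at 20.1. JUN and LSD1 had the highest folds of the proteins in each, and ranked between the percentiles 94.1 and 99.1 of their lists.

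Members with 6 targets included introns of GREB1 and DHRS3, genes known to answer to nuclear receptors. In GREB1, a classical estrogen-induced coactivator of the estrogen receptor, the member (chr2:11638565-11639153) lay in an intron, 16405 bp from the nearest start. It had JUN at 53.9, LSD1 at 49.1, H3K4me3 at 18.6, RARA at 15.7, H3K27me3 at 14.5 and TAF1 at 9.55-fold enrichment, and it overlapped none of the 9 DMSO lists. In DHRS3, a retinaldehyde reductase, the member (chr1:12660132-12662244) had JUN at 54.1 and LSD1 at 49.3. In ANO1, a calcium-activated chloride channel, the member (chr11:69950506-69951524) had JUN at 83.2 with 213 tags, H3K4me3 at 20.1 and no gained LSD1 peak, with LSD1 listed there under DMSO. A member in LINC-PINT (chr7:130578882-130579693) had JUN at 63.8, and one in a coding exon of TMEM120B (chr12:122186276-122187476) had JUN at 66.1.

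The NTMT1 and CEBPB members with 6 targets were intergenic and marked. The first (chr9:132323099-132324861) lay 46302 bp from NTMT1 with JUN at 56.6, and the second (chr20:48900071-48901758) lay 90866 bp from CEBPB with LSD1 at 43.0 and JUN at 40.8. In both, H3K4me3 and TAF1 peaks were gained beside a DMSO region of the same target that touched another part of the member. The strongest member of the commonest combination, H3K27me3, JUN, LSD1 and RARA, was also intergenic (chr8:103612769-103613933, 39523 bp from ODF1), with JUN at 32.8 and H3K27me3 at 25.7. That of the third combination lay in an intron of PIEZO1 (chr16:88826824-88828057), a mechanosensitive channel, with LSD1 at 22.6 and JUN at 16.3. These were exceptions to the promoter position of most marked members.

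Some members lay near one another on the chromosome. Within 50000 bp of another member lay 82 members, in 37 groups. The share of other gained regions that lie so close together is not given here, so these are counts without a background. The ANO1 locus held 4 members within 8048 bp, all of them unmarked. JUN fold enrichment ran from 83.2 in the first through 26.2 and 6.70 to 12.3 in the last, in order along the chromosome. The ANO1 member that ended at 69951524 was followed by one from 69951622, and the one that ended at 69953622 by one from 69953687. They count as separate members because only peaks that shared at least 1 bp were merged. Introns of CBFA2T3, a corepressor gene named here after its values were seen, held 5 members within 15563 bp, with JUN from 16.6 to 81.5, of which 2 were unmarked and 3 marked. In all, 26 genes were assigned 2 or more members, and 383 genes were named by 418 members. By chromosome, members made up from 0.290% of gained regions on X (1 of 345) to 2.35% on chromosome 16 (33 of 1404).

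Genes of the estrogen and retinoid pathways were few but present. In gene lists chosen with earlier results of these data known, a member lay at, in or nearest to 3 of 36 estrogen-response genes (GREB1, RARA and NRIP1) and 3 of 24 retinoid-pathway genes (RARA, DHRS3 and NRIP1), beside 354 of 20090 protein-coding genes (1.76%). TGF-beta, BMP and Wnt signalling had 3 of 41 (TGFBR3, ID2 and WNT10A), receptor tyrosine kinase signalling 1 of 39 (SPRY4) and adhesion 1 of 39 (ACTN1). No member was assigned to any of 28 AP-1 and immediate early genes or to any of 24 endometrial and Müllerian factors. The TGFBR3 and SPRY4 members were intergenic, 76282 and 29558 bp away.

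At these genes both kinds of member were found. At RARA, itself a target of the ChIP, a marked member (chr17:38478126-38479237) reached the promoter, with JUN at 36.2, LSD1 at 25, TAF1 at 10.6 and RARA protein at 8.04-fold enrichment. In NRIP1, a nuclear receptor corepressor gene, an unmarked intronic member (chr21:16375763-16376186) had LSD1 at 19.1, JUN at 15.5, H3K4me1 at 12.7 and H3K4me3 at 9.45. Promoters of MXD1 (a MAX partner), ID2 (an inhibitor of helix-loop-helix factors) and ACTN1 (an actin crosslinker) belonged to the commonest combination, with JUN at 7.09, 7.97 and 6.70, and RARA at 12.1, 15.6 and 7.74. The WNT10A promoter, of a secreted Wnt ligand, gained H3K27me3, H3K4me1, JUN, LSD1 and TAF1, with LSD1 at 15.1. The JUN folds at these 3 promoters of the commonest combination were below the medians of either kind.

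The ERE was in a larger share of unmarked members than of the other gained regions compared, given here as a description of single lists. Within 300 bp about the strongest summit, the ERE without mismatch was in 11 of 150 unmarked members (7.33%, interval 3.72 to 12.7) and in 0 of 268 marked members, a count that allows a share of up to 1.12% when 3 counts are taken as its limit. Allowing 1 mismatch, an addition made after the files were seen, it was in 40 unmarked members (26.7%, interval 19.8 to 34.5) and 6 marked members (2.24%, 0.826 to 4.81). In regions without H3K4me3 under DMSO that gained 1, 2 or 3 targets, the shares were 1.91%, 4.24% and 8.79%. In regions with the mark, they were 1.05%, 1.22% and 1.31%. Matches were close to the summit: of 54 in 1000 bp windows of unmarked members, 37 (68.5%) had their centre within 50 bp, a stretch that makes up 10.1% of the window. In unmarked regions that gained 1, 2 or 3 targets, 19.4%, 35.3% and 47.2% of matches lay that close, and in marked members 4 of 9 did. The strongest summit was JUN in 97 and LSD1 in 30 unmarked members, and its target in other gained regions is not given here. The median of the highest fold was 19.1 in unmarked members, beside 8.93, 11.4 and 12.8 in unmarked regions that gained 1, 2 and 3 targets. ERE shares and distances were not matched for target or strength of the summit. With the longer E2 lists shortened to the length of the DMSO lists, 25 of 46 unmarked members (54.3%) held the element, and without the H3K27me3 lists 39 of 126 (31.0%) did.

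**Figure D4:**
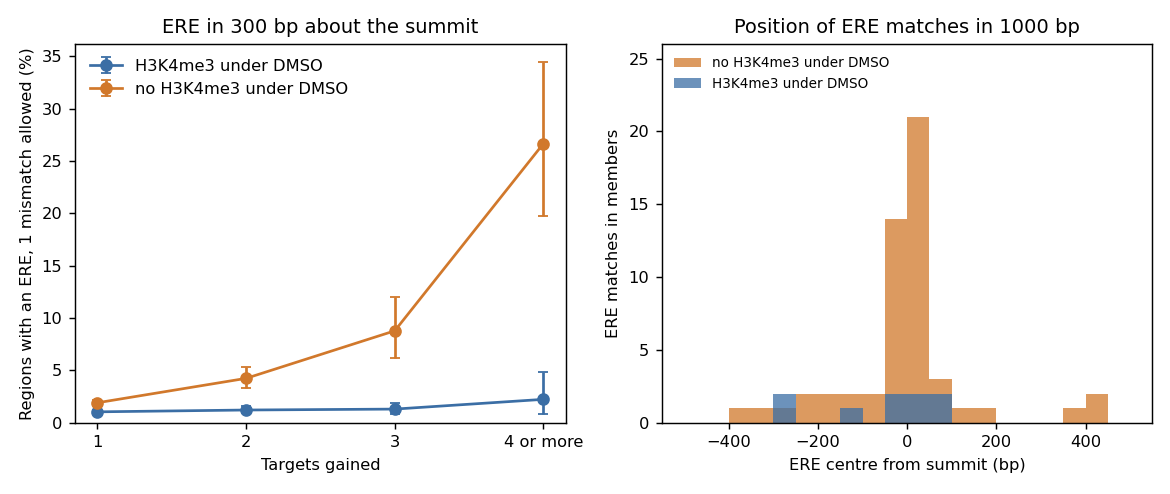
Left, percent of regions with an ERE, 1 mismatch allowed, in 300 bp about the strongest summit, against the number of targets gained, with exact 95% intervals over regions (blue, H3K4me3 under DMSO; orange, none). Right, distance in bp of ERE centres from the summit in 1000 bp windows of members. The unmarked share rises from 1.91% to 26.7% while the marked share stays at or below 2.24%, and 37 of the 54 matches in unmarked members lie within 50 bp of the summit.

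The exact EREs lay at 11 unmarked members, each gaining H3K4me3 and JUN. Apart from CARS1, they included a member in an intron of ENSG00000235007 near IER5L (chr9:131955673-131956788), where JUN was at 30.3 and H3K4me3 at 21.0. Chosen here after their values were seen, a member at MEIS1 (chr2:66734613-66736031), which encodes a homeobox factor, had JUN at 36.1, and an intergenic one 126793 bp from FOXD1 (chr5:72612922-72613861) had JUN at 67.0. SIN3A in full media overlapped 6 of these 11, at folds from 8.91 to 13.9.

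The AP-1 motif was in shares close to those of regions that gained 3 targets, and the E-box in somewhat larger ones. The AP-1 motif was in 29 unmarked members (19.3%) and 14 marked members (5.22%), beside 19.4% and 5.03% of the corresponding regions that gained 3 targets. In regions that gained 1 or 2 targets the shares were 17.5% and 24.5% without the mark and 9.36% and 8.52% with it. The E-box CACGTG, the motif bound by MAX and MYC, was in 21 unmarked members (14.0%, interval 8.88 to 20.6), beside 6.95%, 7.47% and 8.01% of unmarked regions that gained 1, 2 and 3 targets. It was in 38 marked members (14.2%, 10.2 to 18.9), beside 7.86%, 9.25% and 10.8%. The intervals of members and of regions that gained 3 targets overlapped for either kind. The CRE, TGACGTCA, was in 9 members. Of the retinoic acid receptor repeats, AGGTCANNAGGTCA (DR2) was in 0 members and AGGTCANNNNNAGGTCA (DR5) in 1. The shares of the CRE and of these repeats in other gained regions are not given here. Their counts are therefore without a background and say nothing about the RARA peaks. Each motif was searched on both strands.

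SIN3A, which the rule did not use, overlapped the kinds of member to different extents. In hormone-stripped media, SIN3A overlapped 252 of 268 marked members (94.0%, interval 90.5 to 96.5) and in full media 227 (84.7%, 79.8 to 88.8). Marked regions that gained 3 targets had 94.5% and 85.0%. For unmarked members the order of the media was the opposite: 41 of 150 (27.3%, 20.4 to 35.2) in stripped and 57 (38.0%, 30.2 to 46.3) in full media, beside 31.3% and 25.8% of unmarked regions that gained 3 targets. SIN3A was listed in full media alone at 37 unmarked members (24.7%) and 3 marked members (1.12%), beside 6.46% and 0.604% of regions that gained 3 targets. The full list was the shorter, with 16458 peaks against 20624. Among unmarked members with an ERE allowing 1 mismatch, 15 of 40 (37.5%) had SIN3A in full media alone and 1 in stripped media alone. Among those without, 22 of 110 (20%) and 20 of 110 (18.2%) did. With 1 library per medium, these are differences between 2 lists. H3K36me3, a mark of transcribed gene bodies with a list of 114 peaks, overlapped 0 members, which allows a share of up to 0.718% by the same limit of 3 counts, and 0 of the regions that gained 1, 2 or 3 targets.

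In T-47D, marked members were widely occupied and unmarked ones seldom. Some list of the 9 targets after E2 overlapped 263 members (62.9%, interval 58.1 to 67.6), of which 222 were marked (82.8%) and 41 unmarked (27.3%). Under DMSO the numbers were 271, 221 and 50. H3K4me3 after E2 overlapped 190 marked members (70.9%) and 6 unmarked members (4.0%), JUN 220 (82.1%) and 40 (26.7%), and TAF1 133 (49.6%) and 1 (0.667%). Regions that gained 3 targets were close to this. There, H3K4me3 overlapped 77.3% of marked and 3.62% of unmarked regions, JUN 87.5% and 24.3%, and TAF1 48.3% and 1.03%. RARA overlapped 49 members in T-47D under DMSO and 48 after E2, all of them marked. These were 18.3% and 17.9% of marked members, beside 8.66% and 8.15% of marked regions that gained 3 targets. In Ishikawa, RARA under DMSO overlapped 0 members, but the rule had chosen 240 of them for a RARA peak absent under DMSO. The DMSO list of RARA held 136 peaks in Ishikawa and 838 in T-47D, so the 2 lines cannot be compared here. H3K27me3 overlapped 135 members under DMSO, of which 121 were marked, and 0 after E2, when its list held 99 peaks. The 121 were 45.1% of marked members, beside 44.1% of marked regions that gained 3 targets. Of marked regions that gained 3 targets, 88.6% overlapped some E2 list, and of unmarked ones 26.4%.

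The members in the most T-47D lists were promoters of the commonest Ishikawa combination. CANX (calnexin, an endoplasmic reticulum chaperone; chr5:179125331-179126330) and MVD (mevalonate diphosphate decarboxylase, of cholesterol synthesis; chr16:88729290-88729997) each overlapped 6 T-47D lists after E2, H3K4me3, JUN, MAX, MYC, RARA and TAF1. TMEM60 (chr7:77427436-77428480) and RBM15 (an RNA-binding protein; chr1:110880377-110882328) overlapped 5. In Ishikawa, their strongest gained peak was RARA, with 13.4-fold enrichment at CANX, 15.2 at MVD, 23.1 at TMEM60 and 11 at RBM15. In T-47D, RARA was listed at these 4 under both treatments. The absence of RARA there under DMSO in Ishikawa is part of the rule that chose them.

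**Figure D5:**
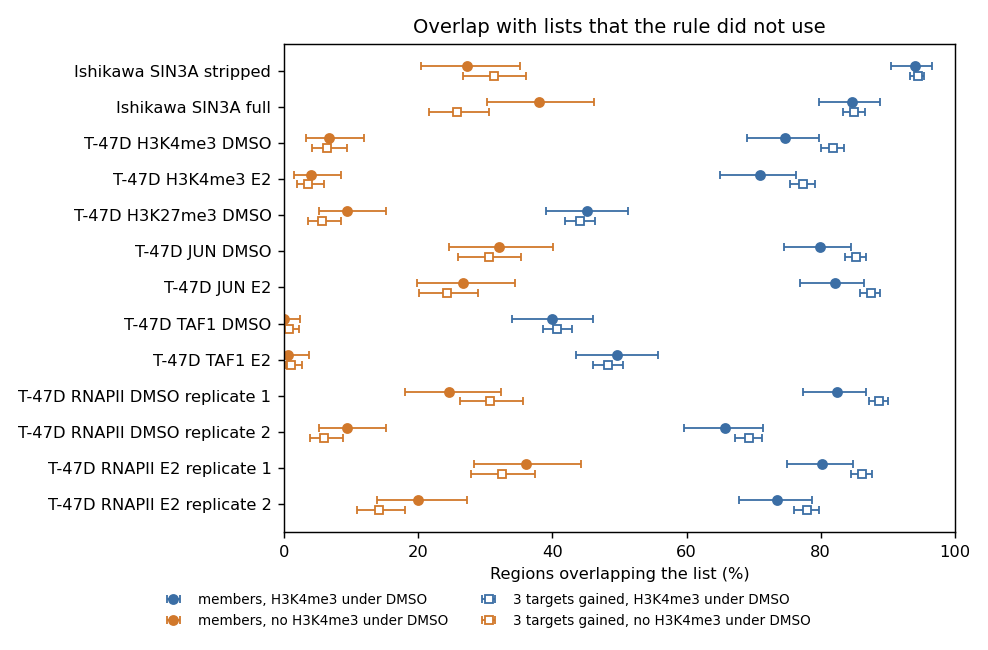
Percent of regions overlapping lists that the rule did not use, for members (filled circles) and regions gaining 3 targets (open squares), with exact 95% intervals over regions (blue, H3K4me3 under DMSO; orange, none). Blue points lie to the right of orange ones in every row, and among unmarked regions SIN3A in full media reaches 38.0% of members and 25.8% of regions with 3 targets.

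LSD1 peaks were few in T-47D and still touched some members. Of 441 LSD1 peaks after E2 in T-47D, some overlapped 7 members (1.67%), 6 of them unmarked, whereas the 37 peaks under DMSO overlapped 0. After E2, LSD1 overlapped 0.198%, 0.365% and 0.253% of regions that gained 1, 2 and 3 targets. It overlapped 4.0% of unmarked members and 1.03% of unmarked regions that gained 3. Apart from GREB1, GSE1 and RARA, the 7 members lay at AFF3, CUEDC1, CISH and TSKU, named here after their values were seen. JUN overlapped all 7 in T-47D under both treatments. RNAPII overlapped all 7 in both E2 replicates and in DMSO replicate 1, and in DMSO replicate 2 it overlapped 6, AFF3 being the exception. At TSKU its fold enrichment was 26.4 and 13.3 under DMSO and 19.1 and 13.4 under E2, so that the treatments overlapped there.

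RNAPII in T-47D was the single readout with replicates, and its difference was within their spread. The share of members overlapping an RNAPII region was 61.7% in DMSO replicate 1, 45.5% in DMSO replicate 2, 64.4% in E2 replicate 1 and 54.3% in E2 replicate 2. The treatments overlapped, with means of 53.6% ± 11.5 (SD, n = 2) under DMSO and 59.3% ± 7.10 (SD, n = 2) under E2. The difference of 5.74 points gave p = 0.667 in an exact two-sided permutation test over 6 assignments, whose smallest possible p is 0.333. Without DMSO replicate 2, the difference turned to -2.39 points. In unmarked members the shares were 24.7% and 9.33% under DMSO and 36% and 20% under E2, and in marked members 82.5%, 65.7%, 80.2% and 73.5% in the same order. Replicate 1 was the higher in each treatment, and its lists were the longer, at 39368 and 46280 peaks beside 21287 and 23431.

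At single members RNAPII appeared in both E2 replicates and in neither DMSO replicate in 6 cases, all unmarked. Of these, 5 were among the 40 with an ERE allowing 1 mismatch and 1 among the 110 without. At TMEM120B, RNAPII fold enrichment after E2 was 27 and 7.51, at SLC22A5 (a carnitine transporter; chr5:131713975-131714760) 25.5 and 7.02, at ENSG00000235007 28.9 and 11, at PPM1J (a protein phosphatase; chr1:113256060-113256579) 21.0 and 5.70, and at TBC1D16 (a Rab GTPase-activating protein; chr17:77916276-77917214) 25.8 and 8.70. At the GREB1 member RNAPII was listed in all 4 libraries, at 15.4 and 10.0 under DMSO and 41.3 and 39.7 under E2, so that both E2 values lay above both DMSO values. For comparison, 8 of 387 unmarked regions that gained 3 targets (2.07%) and 6 of 150 unmarked members (4.0%) had RNAPII in both E2 replicates and in neither DMSO replicate.

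The labels of the cell lines were checked against H3K4me3 at marker genes. In Ishikawa, 4 of 5 endometrial markers (PAX8, EMX2, HOXA10 and HOXA11, but not SOX17) carried the mark at their start and none did in T-47D. Of 5 breast markers, 3 did in T-47D (GATA3, SPDEF and TRPS1), and TRPS1 did in Ishikawa too. The epithelial genes EPCAM, KRT8 and CDH1 carried it in both.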

How the data were processed

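Of 49 samples, 45 had a narrowPeak list, 21 from Ishikawa and 24 from T-47D. Per the labels, Bowtie 1.1.2 alignment to hg19 (GRCh37) and MACS2 2.1.0.20140616 peak calling were run by the authors on each library. Deposited for each peak were its fold enrichment at the summit, a ratio of pileup to background, its −log10 p-value and its −log10 q-value. The smallest −log10 p was 10.0. Each list passed this threshold at its own depth, so its length depends on depth as well as on occupancy. No library totals were used, and whole tag pileups were recovered from fold and p where both gave them (32 of 45 lists, tolerance 0.001).

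Overlap was 1 bp. Places came from GENCODE 44 on GRCh37, and 0 peaks ran past a chromosome end. Shares have exact (Clopper-Pearson) 95% intervals, and a count of 0 the limit of 3 counts of the total. Both cover counting error only. Members, gene lists and named regions (most targets, commonest combinations, most T-47D lists, listed genes, RNAPII under E2 alone) were chosen with earlier results of these data known. RNAPII was tested by exact permutation over samples, whose labels do not say that they came from separate cultures. Analyses used Python 3.11.15, SciPy 1.17.1 and pysam 0.24.0, and were tested on simulated lists. Alternatives included list length, fold, overlap, gaps and targets left out. Some items that these rules name are not reported here.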

Additional observations from a re-analysis of the deposited data

How the results depend on the processing

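Shares are given as at a start site, in SIN3A of stripped media, in any T-47D E2 list and with an AP-1 motif, for members, and with an ERE (1 mismatch) and with SIN3A in full media alone, for unmarked members. With longer E2 lists shortened to the DMSO length, 64 members (46 unmarked) had shares of 21.9%, 31.2%, 34.4%, 54.3% for the ERE and 45.7% for SIN3A, and 4 regions lost 4 targets. At fold enrichment of at least 10 the values were 171 (57), 30.4%, 58.5%, 42.7%, AP-1 14.6% and JUN with LSD1 84.2%. With 5 or more targets they were 57 (38), 29.8%, 40.4%, 42.1%, AP-1 15.8%, ERE 42.1% and SIN3A 36.8%. Without the JUN lists they were 66 (41), 34.8%, 45.5%, 45.5%, ERE 36.6% and SIN3A 34.1%. Without LSD1 they were 80 (51), 30%, 46.2%, 43.8%, AP-1 15%, ERE 37.3% and SIN3A 35.3%. Without H3K27me3, 161 members had 19.9%, 36%, 29.2% and AP-1 19.3%. Without RARA, an alternative added after seeing the data, 213 had 31.0%, 49.8% and 44.1%. Without H3K4me1 the first 3 shares were 59.7%, 75.4% and 69.0%, with 96 unmarked members. A DMSO peak counted within 1000 bp gave 61.6% at start sites and 5 regions that lost 4 targets. Required cover of 50% gave 749 members, and gaps of 500 bp gave 705, with SIN3A at 75.6%. A window of 1000 bp raised the start site share to 62.0%, and a motif window of 500 bp the AP-1 share to 13.6%. Cover of 50% of the member gave 57.4% for SIN3A and 56.5% for T-47D. Of 113 values, 52 stayed within 1.5 times the count, within the interval of the share or, for RNAPII, on the same side of 0. The cause of the other changes was not tested.

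Leaving out each RNAPII replicate in turn gave differences from -2.39 to 13.9 points, and DMSO replicate 2 turned the sign. The labels do not tie same-numbered replicates to a shared batch. With the replicate block the difference was 5.74 points (p = 0.5 in an exact sign-flip test, the smallest it can give with 2 pairs).

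Depth limits what a missing peak means: each list holds peaks past 1 p-value at its own depth, so absence from a DMSO list, or from the short T-47D lists of LSD1, MAX, MYC, RARA and H3K27me3, is not absence of the target. The 3 results on unmarked members and the split behind them were added after the values were seen.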
